A study of Homo sapiens with 6 samples.

Results

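The genes described here encode the secreted and membrane-bound zinc proteases of the MMP, ADAM and ADAMTS families and their protein inhibitors, the TIMPs. Members were the protein-coding genes of the authors' table of normalized means whose symbol is MMP, ADAM, ADAMTS or TIMP followed by digits, and 65 of its 52401 genes met this rule. They comprise 23 MMP, 19 ADAM, 19 ADAMTS and 4 TIMP genes, and each was also found in the authors' second table, which gives a level in FPKM (fragments per kilobase of transcript, scaled to the library's total). RNA was compared between 2 lines derived from MCF10A, an immortalised, non-tumorigenic human mammary epithelial line. F1F2 cells carry 2 retroviral vectors, for HA-tagged flotillin-1 and for flotillin-2 fused to mCherry, and were selected with puromycin and hygromycin, with 3 libraries. mCherry cells carry 1 retroviral vector, for the fluorescent protein mCherry alone, and were selected with puromycin, also with 3 libraries. Each group is a single stable line, so raised flotillins, the additional vector and the hygromycin selection cannot be told apart. The labels do not tell whether the 3 libraries per line derive from independent cultures. The p-values below therefore reflect variation among those libraries, possibly only technical.

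MMPs cut collagens, laminins, proteoglycans and many non-matrix proteins, and most are made as inactive proenzymes. ADAMs are membrane-anchored and release the outer parts of growth factors, adhesion proteins and Notch receptors from the cell surface, a step called shedding. ADAMTS proteases are secreted and act on proteoglycans, procollagens and other matrix proteins, while TIMPs bind the active site of these enzymes and block it. In mammary epithelium such proteases take part in branching, in basement membrane turnover and in the supply of ligands of the EGF receptor. Flotillins build scaffolds in membrane microdomains and on endocytic vesicles.

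The catalytic site of these enzymes holds a zinc ion between 3 histidines, with a glutamate beside the first of them, over 11 codons. A search of the GENCODE 29 coding sequences (GRCh38) for these residues at their fixed spacing found the site in 53 of the 65 members. All 23 MMP and 19 ADAMTS genes held it, as did 11 of the 19 ADAM genes and 0 of the 4 TIMP genes, against 88 of 19684 protein-coding genes (0.447%). The site is shown for MMP2, MMP28, ADAM10, ADAM17 and ADAMTS7, the proteases called both in the authors' first table and in a linear model (limma) of the single libraries, and for MMP14, the most abundant MMP, so that their shared core can be compared. Capitals mark the histidine, glutamate, histidine and histidine codons.
MMP2: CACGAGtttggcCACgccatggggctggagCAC
MMP14: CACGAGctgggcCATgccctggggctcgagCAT
MMP28: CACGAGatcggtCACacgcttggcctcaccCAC
ADAM10: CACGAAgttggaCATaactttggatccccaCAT
ADAM17: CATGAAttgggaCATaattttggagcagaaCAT
ADAMTS7: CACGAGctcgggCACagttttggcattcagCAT
Among these 6 runs the capital codons differ only in their last base.

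Reads per library were recovered from the authors' group means, which are sums of whole read counts divided by size factors, and values per library are such normalized counts. Library depth was even, at 18647386 to 19776803 reads in the genes whose reads could be resolved per library. The introduced genes were higher in F1F2 cells: FLOT1 had 17243, 14137 and 18932 normalized counts in F1F2 libraries, against 1898, 1359 and 1166 in mCherry libraries, and FLOT2 had an authors' mean of 41052 in F1F2 cells, against 3727 in mCherry cells. Recovered libraries have no replicate number of their own and are numbered 1 to 3 by falling size factor in each group. Library 3 stood apart in both groups: 8 proliferation markers summed to 13224, 11293 and 59222 normalized counts in F1F2 libraries 1 to 3 and to 5518, 13090 and 54910 in mCherry libraries 1 to 3, with 8 of 8 markers highest in library 3. Among epithelial markers, 2 of 4 tested fell in the authors' deposited table, 0 rose and 2 had no call. Of those that fell, CDH1 was at a mean of 78.8 in F1F2 cells and 17575 in mCherry cells. EPCAM was at 81.0 in F1F2 cells and 4607 in mCherry cells. The 4 summed to 3686 in F1F2 cells and 24269 in mCherry cells. The 2 with no call gave most of the F1F2 sum and together lay higher in F1F2 cells than in mCherry cells. Of 5 basal mammary markers 4 fell in the authors' deposited table. KRT5 averaged 67351 in F1F2 cells and 48381 in mCherry cells with no call. Of 6 fibroblast markers tested, 3 rose (DCN, LUM and PDGFRB) and COL1A1 fell in the same table, and THY1 was at 0 in all libraries. The whole list of 9 summed to 43484 in F1F2 cells and 5510 in mCherry cells, of which DCN alone gave 42467 in F1F2 cells and 4659 in mCherry cells, and the other 8 summed to 1017 in F1F2 cells and 852 in mCherry cells. Of 4 leukocyte markers tested, 3 fell (CD14, CSF1R and ITGAM) and 0 rose in the same table. The leukocyte list summed to 1517 in F1F2 cells and 1870 in mCherry cells, CD68 with no call gave 1309 in F1F2 cells and 753 in mCherry cells of this, and CD3E was at 0. The part of these marker levels and of library 3 in the results below was not tested except where values without library 3 are given.

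Of the 65 members, 11 had no read in any library, 12 had reads but were not tested in the authors' deposited table (their mean over both groups reached at most 2.35 normalized counts), and 42 were tested. Among those 42, 4 rose and 9 fell in F1F2 cells at an adjusted p under 0.05, which is 31.0% called, against 23.6% of all 19733 genes tested (11.6% higher and 12.0% lower). MMP2, ADAMTS5, ADAMTS7 and TIMP1 rose. MMP9, MMP14, MMP15, MMP28, ADAM10, ADAM17, ADAM28, ADAMTS19 and TIMP3 fell. The other 29 had log2 fold changes between -1.68 and 1.42 with adjusted p from 0.0576 to 0.977 in the authors' deposited table. The authors' log2 fold changes are often smaller in size than the log2 of the ratio of group means. ADAMTS17 at -1.68 was 7.77-fold lower by group means, and ADAM23 at 1.42 was 3.50-fold higher. Folds by group means and log2 fold changes are therefore separate measures here. Tested members had a median log2 fold change of -0.34, against -0.04 for all tested genes. Above a mean of 100 normalized counts it was -0.08 for 18 members, against 0.11 for 11463 genes. In a bulk sample, fewer cells of a type and less RNA per cell cannot be told apart.

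**Figure D1:**
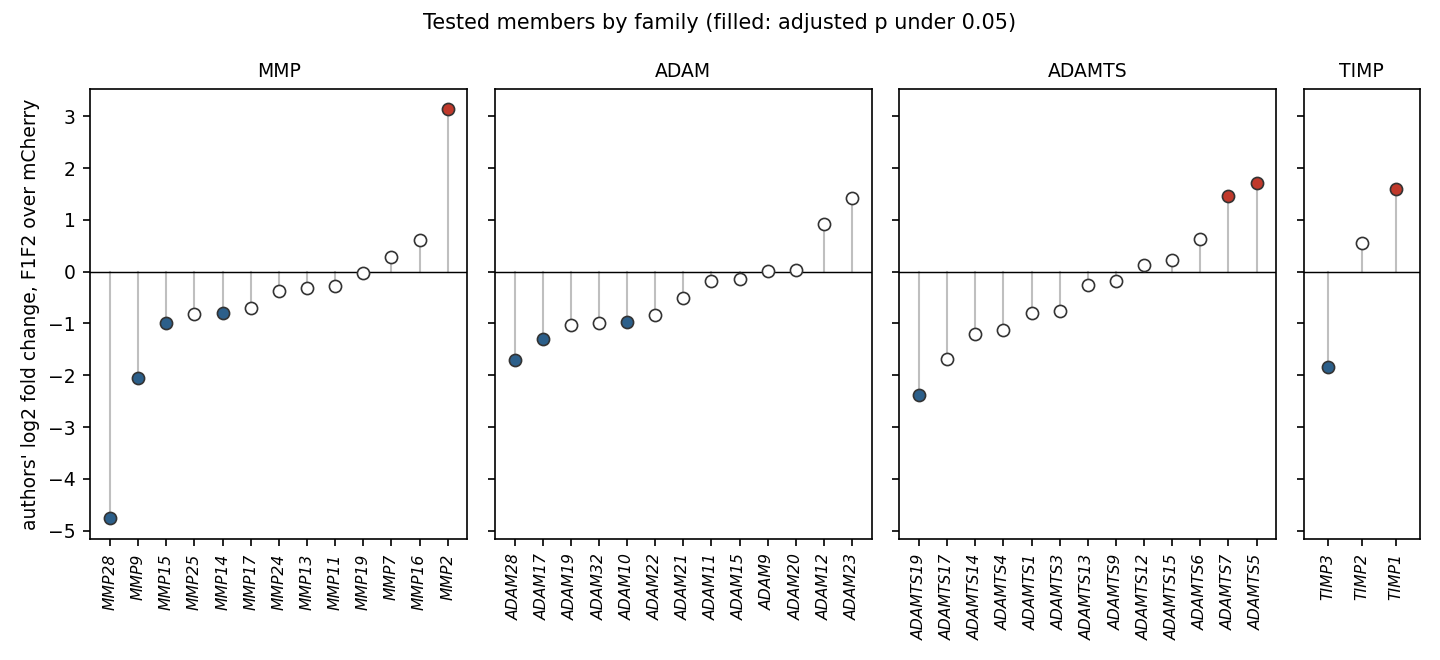
Authors' log2 fold change of F1F2 over mCherry cells (vertical axis) for the 42 tested members, by family; filled points have an adjusted p under 0.05. MMP2 at 3.14 and MMP28 at -4.77 lie at the ends of the range, and each family holds members on both sides of 0.

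A second comparison deposited by the authors, from the Tuxedo pipeline, tested 29 members and called 3 higher and 6 lower, against 16.9% of 17022 genes tested (6.93% higher and 10.0% lower). These 3 and 6 genes are all among the 4 and 9 called in the authors' first table, in the same direction. For a spread between libraries, limma was fitted to log2(normalized count + 1) of the recovered libraries over 15907 genes with a mean of at least 10. It fitted 35 members and called 2 higher (MMP2 and ADAMTS7) and 4 lower (MMP28, ADAM10, ADAM17 and TIMP3), against 12.2% higher and 11.1% lower of all genes fitted. Of the 35, 4 lay higher in every F1F2 library than in every mCherry library and 9 lay lower, against 45.2% of all genes fitted (24.2% higher and 21.1% lower).

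Levels spanned several orders of magnitude. At 1 FPKM or more the authors' second table listed 19 members in F1F2 cells and 20 in mCherry cells. TIMP1, an inhibitor of many MMPs, was the highest at 6573 FPKM in F1F2 cells and 2185 FPKM in mCherry cells. ADAM15, a membrane-anchored ADAM with an integrin-binding sequence, stood at 399 FPKM in F1F2 cells and 542 FPKM in mCherry cells. ADAM9, another sheddase of the cell surface, stood at 166 FPKM in F1F2 cells and 172 FPKM in mCherry cells. MMP14 held 60.4 FPKM in F1F2 cells and 115 FPKM in mCherry cells, and TIMP2 held 94.6 FPKM in F1F2 cells and 67.6 FPKM in mCherry cells. ADAM10 held 51.2 FPKM in F1F2 cells and 103 FPKM in mCherry cells. No ADAMTS gene came near these levels.

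Summed over families, MMP levels were 96.1 FPKM in F1F2 cells and 186 FPKM in mCherry cells. MMP14 gave 62.8% of the MMP sum in F1F2 cells and 62.1% in mCherry cells. The next gene differed between the lines: MMP2 gave 23.4% of the sum in F1F2 cells, and MMP28 gave 29% in mCherry cells. ADAM levels summed to 646 FPKM in F1F2 cells and 864 FPKM in mCherry cells, with ADAM15 at 61.8% in F1F2 cells and 62.7% in mCherry cells. ADAMTS genes together reached only 11.4 FPKM in F1F2 cells and 8.86 FPKM in mCherry cells, of which ADAMTS7 gave 52.7% in F1F2 cells and 28.3% in mCherry cells. The TIMP sum was 6683 FPKM in F1F2 cells and 2317 FPKM in mCherry cells, with TIMP1 at 98.3% in F1F2 cells and 94.3% in mCherry cells. These sums are single values per group in the authors' table and have no error.

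**Figure D2:**
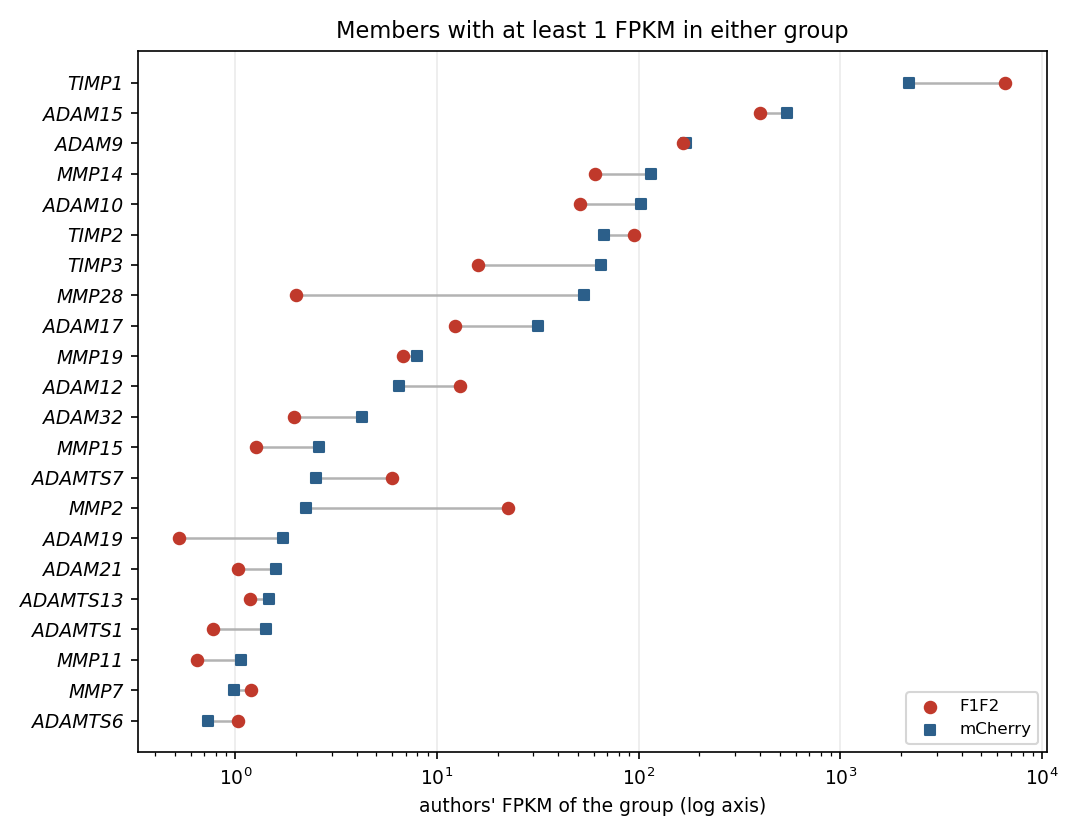
Authors' FPKM per group on a log axis for the 22 members with at least 1 FPKM in F1F2 or mCherry cells, ordered by the mCherry level. TIMP1 lies above all other members in both groups, and the longest horizontal gaps are those of MMP28 (2.01 FPKM in F1F2 cells, 53.8 FPKM in mCherry cells) and MMP2 (22.5 FPKM in F1F2 cells, 2.23 FPKM in mCherry cells).

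The gelatinases, which cut denatured collagen and the type IV collagen of basement membranes, moved in opposite directions. MMP2 (chr16:55512883-55540603, GRCh37) had 2379, 1252 and 2131 normalized counts in F1F2 libraries 1 to 3, against 297, 145 and 85.9 in mCherry libraries 1 to 3. The lowest F1F2 library lay above the highest mCherry library, and the mCherry libraries differed among themselves more, in proportion, than the F1F2 libraries did. MMP2 was 10.9-fold higher in F1F2 cells by group means, with a log2 fold change of 3.14 and adjusted p = 7.51e-12 in the authors' deposited table and 3.57 with SE 0.46 and adjusted p = 0.00336 in limma. Without mCherry library 1 it was 16.6-fold higher. MMP9 (chr20:44637547-44645200) had 0 reads in the 3 F1F2 libraries and 18 reads in the mCherry libraries, at 3.79, 1.91 and 11.8 normalized counts. The MMP9 mean of 5.85 in mCherry cells was 5.77-fold above a floor of 3 counts over the F1F2 group. This ratio takes the mCherry mean as exact and is therefore not a lower bound. Without library 3 the mCherry mean was 2.85. The adjusted p of MMP9 was 0.0266 in the authors' deposited table. The mCherry level of MMP9 was itself near the limit of detection, and most of its reads came from library 3.

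MMP28, also called epilysin, is a secreted MMP known from keratinocytes and wound edges. It fell further than any other tested member. MMP28 (chr17:34092876-34122640) had 42.0, 71.9 and 24.7 normalized counts in F1F2 libraries, against 2577, 1333 and 1247 in mCherry libraries. The groups lay far apart, with mCherry library 1 above the other two mCherry libraries. MMP28 was 37.2-fold lower in F1F2 cells by group means, with a log2 fold change of -4.77 and adjusted p = 1.41e-28 in the authors' deposited table and -5.23 with SE 0.438 and adjusted p = 0.000562 in limma.

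Membrane-type MMPs stay attached to the cell surface and cut the matrix around the cell, and MMP14 also activates pro-MMP2 there in a complex with TIMP2. Of 6 membrane-type members tested, 2 fell, 0 rose and 4 were not called (log2 fold changes of -0.81 to 0.61). Of all genes tested, 11.6% were higher and 12.0% lower. A difference of this small group from all genes was not tested. MMP14 (chr14:23305772-23316970) had 6108, 5411 and 5644 normalized counts in F1F2 libraries, against 13973, 8870 and 7804 in mCherry libraries. The groups did not overlap, but mCherry library 1 stood well above the other two mCherry libraries. MMP14 was 1.79-fold lower in F1F2 cells, with adjusted p = 0.0241 in the authors' deposited table, q = 0.00321 in the Tuxedo comparison and adjusted p = 0.0506 in limma, or 0.00942 without library 3 of both groups. MMP15 (chr16:58059470-58080805), a close relative of MMP14, had 97.0, 163 and 69.9 normalized counts in F1F2 libraries, against 276, 188 and 222 in mCherry libraries. The nearest libraries of the groups were close, and MMP15 was 2.08-fold lower in F1F2 cells with adjusted p = 0.0295 in the authors' deposited table and adjusted p = 0.0529 in limma.

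The collagenases, stromelysins and other MMPs of the chromosome 11 cluster (chr11:102391268-102826462) were low in both lines. The 9 members there held 99 reads in F1F2 cells and 90 reads in mCherry cells over all libraries. Only 2 were tested, with log2 fold changes of -0.31 and 0.29, and 0 were called. MMP1, the interstitial collagenase, had 3 reads in F1F2 cells and 3 reads in mCherry cells and was not tested. Among the remaining MMPs, 2 were tested and 0 were called.

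**Figure D3:**
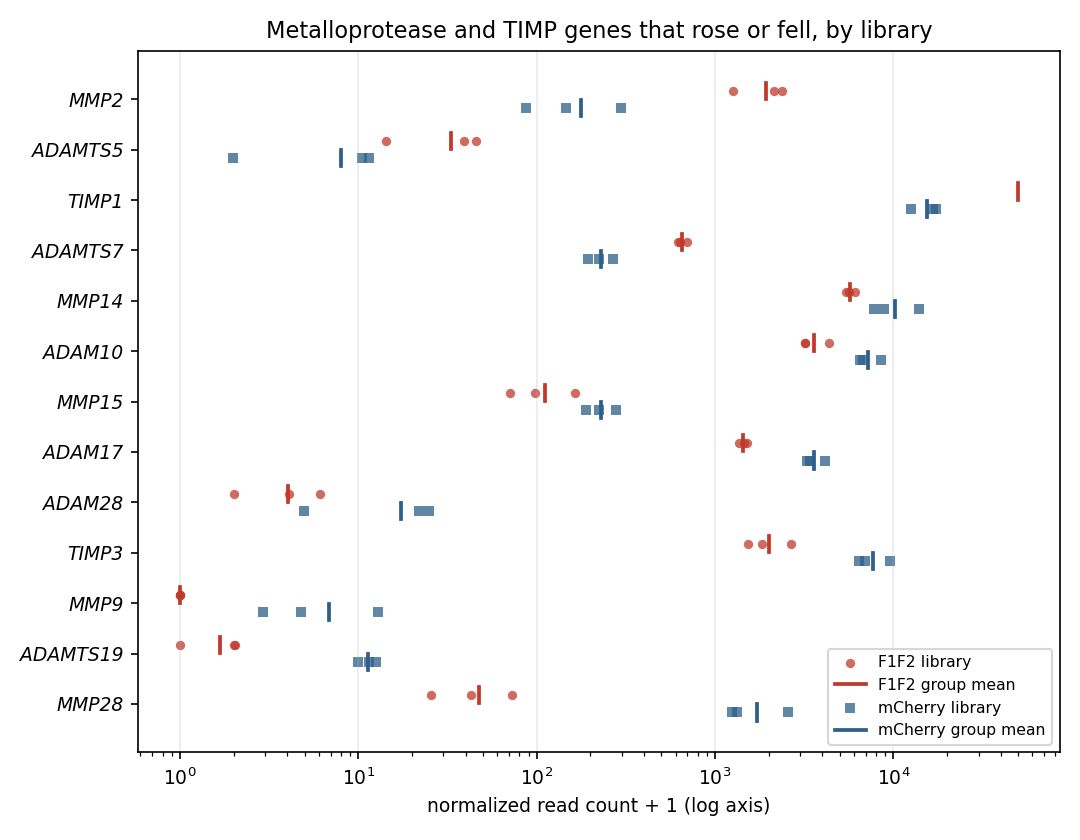
Normalized read count + 1 on a log axis for the 13 members called in the authors' deposited table, with a point for each recovered library (F1F2 circles above, mCherry squares below) and the group mean as a bar. Groups overlap for ADAM28 alone among the 12 genes with libraries shown in both groups. These genes were picked by a test of the same libraries, so little overlap follows from the choice. Of all genes fitted by limma, 45.2% had no overlap. TIMP1 has only its mean in F1F2 cells because its reads could not be resolved there.

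The sheddases ADAM10 and ADAM17 both fell. ADAM10 releases Notch and E-cadherin ectodomains among others, and ADAM17, also called TACE, releases TNF and EGF receptor ligands. ADAM17 (chr2:9613787-9695921) had 1367, 1442 and 1502 normalized counts in F1F2 libraries, against 3409, 4134 and 3271 in mCherry libraries. Its F1F2 libraries lay within a narrow band far below the lowest mCherry library. ADAM17 was 2.51-fold lower in F1F2 cells, with a log2 fold change of -1.30 and adjusted p = 5.02e-08 in the authors' deposited table and -1.32 with SE 0.165 and adjusted p = 0.00275 in limma. The authors' locus also holds IAH1, which had 84.0 FPKM in F1F2 cells and 60.6 FPKM in mCherry cells, a level that was not lower in F1F2 cells. ADAM10 (chr15:58887403-59042177) had 3186, 3207 and 4365 normalized counts in F1F2 libraries, against 6490, 8459 and 6723 in mCherry libraries. The groups did not overlap, and the highest F1F2 library was library 3. ADAM10 was 2.01-fold lower in F1F2 cells, with a log2 fold change of -0.98 and adjusted p = 0.00101 in the authors' deposited table, q = 0.0547 in the Tuxedo comparison, and -1.02 with SE 0.205 and adjusted p = 0.0144 in limma. Without F1F2 library 1, F1F2 library 2 or mCherry library 2, limma's adjusted p for ADAM10 was 0.075, 0.0675 and 0.0523.

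RefSeq promoters (250 bases before to 50 after the start, GRCh38.p14) were at hand for 38 members, 8 of them called. The pair of sheddases is shown because both fell, with GC boxes and E-boxes in capitals.
ADAM10, chr15:58749658-58749957, minus strand: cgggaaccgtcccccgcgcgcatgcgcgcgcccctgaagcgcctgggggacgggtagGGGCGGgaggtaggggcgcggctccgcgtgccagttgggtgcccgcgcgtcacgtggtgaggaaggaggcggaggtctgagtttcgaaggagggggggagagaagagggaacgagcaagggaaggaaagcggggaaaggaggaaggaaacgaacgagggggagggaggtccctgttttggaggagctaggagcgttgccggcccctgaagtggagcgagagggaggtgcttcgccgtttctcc
ADAM17, chr2:9555781-9556080, minus strand: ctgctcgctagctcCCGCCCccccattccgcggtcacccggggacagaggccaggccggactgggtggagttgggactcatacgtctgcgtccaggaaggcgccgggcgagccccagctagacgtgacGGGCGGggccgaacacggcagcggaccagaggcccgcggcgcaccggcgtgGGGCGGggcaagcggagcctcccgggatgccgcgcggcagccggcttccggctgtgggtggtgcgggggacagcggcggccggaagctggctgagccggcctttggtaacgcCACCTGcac
The GC box GGGCGG, searched on both strands, was in all 8 promoters of called members and in 25 of 39 member promoters (64.1%), against 45.0% of 35116 promoters. Most promoters of members tested but not called held it too, as in ADAM15 with 6, ADAMTS14 with 5 and MMP11 with 4. Those of MMP7, ADAM19, ADAM20, ADAM21 and ADAMTS6 did not. A difference between called and not called members was not tested. The E-box CACCTG, a motif bound by SNAI and ZEB factors and searched on both strands, was in 2 of the 8 and in 8 of 39 member promoters (20.5%), against 20.6% of all promoters. The AP-1 site TGAGTCA on both strands was in 0 of the 8 and in 1 of 39 (2.6%), against 4.9%, and TATAAA on the given strand was in 0 of the 8 and in 7 of 39 (17.9%), against 7.3%. A match is a run of letters in this window and not a measured site.

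Among the other tested ADAMs ADAM28 alone was called. ADAM9 had 15764, 15392 and 17793 normalized counts in F1F2 libraries, against 13986, 18824 and 15718 in mCherry libraries, with adjusted p = 0.975 in the authors' deposited table. ADAM15 had 15525, 16119 and 16586 normalized counts in F1F2 libraries, against 19802, 12173 and 21054 in mCherry libraries, with adjusted p = 0.766 there. For these abundant members the F1F2 libraries lay within the range of the mCherry libraries, and the limma log2 fold changes were 0.02 with SE 0.191 for ADAM9 and -0.10 with SE 0.243 for ADAM15. ADAM28, a metalloprotease first known from lymphocytes, had 1.00, 5.07 and 3.08 normalized counts in F1F2 libraries, against 20.9, 23.9 and 3.95 in mCherry libraries. Its groups overlapped and rest on 9 reads in F1F2 cells and 51 reads in mCherry cells, with adjusted p = 0.0434 in the authors' deposited table. ADAM23, an ADAM without the zinc site that is known from neurons, had 17, 13.2 and 67.9 normalized counts in F1F2 libraries, against 4.74, 13.4 and 9.87 in mCherry libraries, with adjusted p = 0.0663 there. Library 3 gave most of its F1F2 signal. By the zinc site, 3 of 9 tested ADAMs that hold it fell and 0 rose, and of 4 tested ADAMs without it 0 were called, against 23.6% called of all genes tested. The difference between these kinds of ADAM was not tested.

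ADAMTS genes were low, and 2 of 13 tested rose while 1 fell. This is 23.1% called, near the 23.6% called of all genes tested. ADAMTS7, which cuts the cartilage matrix protein COMP, was the most abundant of them. ADAMTS7 (chr15:79051546-79103773) had 693, 622 and 633 normalized counts in F1F2 libraries, against 193, 268 and 223 in mCherry libraries. Both groups were tight and far apart. ADAMTS7 was 2.85-fold higher in F1F2 cells, with a log2 fold change of 1.47 and adjusted p = 4.15e-08 in the authors' deposited table and 1.52 with SE 0.207 and adjusted p = 0.00385 in limma. Its close relative ADAMTS12 was not called.

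Proteoglycanases of the family cut aggrecan and versican, and 1 of 5 tested rose, against 11.6% higher of all genes tested. ADAMTS5, an aggrecanase, had 38, 44.6 and 13.4 normalized counts in F1F2 libraries, against 9.49, 10.5 and 0.987 in mCherry libraries (chr21:28261695-28338832). The groups did not overlap, and library 3 was the lowest in each of them. ADAMTS5 was 4.57-fold higher in F1F2 cells on 95 reads in F1F2 cells and 22 reads in mCherry cells, with adjusted p = 0.0227 in the authors' deposited table and 0.0725 in limma. ADAMTS4, another aggrecanase, had 9.0, 20.3 and 15.4 normalized counts in F1F2 libraries, against 31.3, 46.9 and 28.6 in mCherry libraries, with adjusted p = 0.0576 in the authors' deposited table. ADAMTS1 had 22.0, 29.4 and 49.3 normalized counts in F1F2 libraries, against 53.1, 78.4 and 51.3 in mCherry libraries, with adjusted p = 0.147 there. Both lay lower in every F1F2 library without passing that test.

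ADAMTS19 (chr5:128795252-129522327) had 2 reads in F1F2 cells and 32 reads in mCherry cells, a ratio of 0.0657 (exact 95% interval 0.00763 to 0.258, counting error only), with adjusted p = 0.00497 in the authors' deposited table. F1F2 library 2 held 0 of its reads, and without that library ADAMTS19 averaged 1.01 normalized counts in F1F2 cells and 10.3 in mCherry cells. ADAMTS17 had 3 reads in F1F2 cells and 25 reads in mCherry cells, a ratio of 0.126 (exact 95% interval 0.0244 to 0.414), with adjusted p = 0.0739 there. Both are ADAMTS genes at the edge of detection. The procollagen N-propeptidases, which trim fibrillar collagens, gave 0 calls among 2 tested, with log2 fold changes of -1.20 and -0.76.

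The TIMPs split. TIMP1 rose, TIMP3 fell, TIMP2 was not called, and TIMP4 had 1 read in all and was not tested. TIMP1 had an authors' mean of 49825 normalized counts in F1F2 cells, against 17404, 12551 and 16577 in mCherry libraries. The F1F2 mean lay above every mCherry library, but its reads could not be resolved into libraries. TIMP1 was 3.21-fold higher in F1F2 cells, with a log2 fold change of 1.61 and adjusted p = 3.96e-06 in the authors' deposited table and q = 0.000804 in the Tuxedo comparison. The authors' TIMP1 locus (chrX:47420516-47479252) joins SYN1 and ARAF, at 0.311 and 44.1 FPKM in F1F2 cells and 0.0998 and 54.4 FPKM in mCherry cells.

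TIMP3, which is bound to the matrix and inhibits ADAM17 and several ADAMTS enzymes as well as MMPs, had 1834, 2651 and 1537 normalized counts in F1F2 libraries, against 9521, 6414 and 6960 in mCherry libraries. The highest F1F2 library was less than every mCherry library by a wide margin. TIMP3 was 3.80-fold lower in F1F2 cells, with a log2 fold change of -1.85 and adjusted p = 2.23e-08 in the authors' deposited table and -1.94 with SE 0.256 and adjusted p = 0.00331 in limma. Its locus (chr22:32908539-33454358) lies within SYN3, at 0.255 FPKM in F1F2 cells and 4.06 FPKM in mCherry cells, and holds a pseudogene at 47.4 FPKM in F1F2 cells and 220 FPKM in mCherry cells. Those neighbours moved with TIMP3, and whether reads were divided between them was not tested. TIMP2, which both inhibits MMP2 and helps MMP14 to activate it, had 8322, 7939 and 10106 normalized counts in F1F2 libraries, against 7392, 5156 and 5054 in mCherry libraries. Every F1F2 library was higher, with a log2 fold change of 0.56 and adjusted p = 0.0937 in the authors' deposited table and adjusted p = 0.078 in limma.

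The promoters of the TIMP genes that moved in opposite directions are shown with GC boxes in capitals.
TIMP1, chrX:47582186-47582485, plus strand: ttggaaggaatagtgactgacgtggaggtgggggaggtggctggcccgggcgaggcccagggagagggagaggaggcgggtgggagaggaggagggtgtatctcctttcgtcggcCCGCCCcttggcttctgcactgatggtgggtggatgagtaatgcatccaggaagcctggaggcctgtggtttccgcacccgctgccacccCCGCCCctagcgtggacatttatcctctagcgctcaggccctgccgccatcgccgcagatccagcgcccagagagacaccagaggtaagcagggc
TIMP3, chr22:32801455-32801754, plus strand: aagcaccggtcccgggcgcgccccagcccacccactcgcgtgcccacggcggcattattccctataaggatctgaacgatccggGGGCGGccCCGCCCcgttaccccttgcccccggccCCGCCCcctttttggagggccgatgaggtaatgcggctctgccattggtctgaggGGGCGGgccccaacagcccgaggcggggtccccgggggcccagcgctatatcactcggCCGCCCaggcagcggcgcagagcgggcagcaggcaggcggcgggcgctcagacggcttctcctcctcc
TIMP1 held 2 GC boxes and TIMP3 held 5 within these 300 bases, and neither held the E-box, the AP-1 site or TATAAA.

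Leaving out library 3 of both groups, where proliferation markers were high, changed how many members passed limma's threshold. Without it limma fitted 36 members and called 4 higher and 10 lower, against 23.4% higher and 20.7% lower of 16029 genes fitted, which together make 44.1% of all genes, against 23.4% with all 6 libraries. ADAMTS5, MMP14 and ADAM28 then passed with adjusted p = 0.00485, 0.00942 and 0.008 in limma, as in the authors' table. ADAM12, ADAM19, ADAM32, ADAMTS1 and ADAMTS4 passed there and not in the authors' table, and of these ADAM12, ADAM19 and ADAM32 are named here because of their values. ADAM12, a sheddase of EGF receptor ligands, had 1472, 910 and 3544 normalized counts in F1F2 libraries, against 605, 733 and 1552 in mCherry libraries. ADAM19 had 41.0, 12.2 and 213 normalized counts in F1F2 libraries, against 239, 132 and 466 in mCherry libraries. Both were highest in library 3 of each group, as the proliferation markers were. ADAM32, which lacks the zinc site, had 109, 100 and 70.9 normalized counts in F1F2 libraries, against 214, 310 and 78.0 in mCherry libraries, and was lowest in library 3 of each group. A fit to all 6 libraries with a term for library 3 against libraries 1 and 2, chosen after the data were seen, called 6 of 35 members higher and 9 lower in limma, against 24.6% higher and 21.5% lower of all genes fitted (46.0% in all). Of the genes called in the authors' table, MMP14, MMP15 and ADAMTS5 passed there with adjusted p = 0.00969, 0.0102 and 0.0016 in limma. In the fit with the term, ADAM12 had a log2 fold change of 0.93 with SE 0.205, ADAM19 one of -2.33 with SE 0.576 and ADAM32 one of -0.91 with SE 0.286, with adjusted p = 0.00501, 0.0179 and 0.0255 in limma. ADAM23, ADAMTS4 and TIMP2 passed there too, with adjusted p = 0.0419, 0.0264 and 0.0273 in limma. Whether library 3 of both groups shares a source was not tested.

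**Figure D4:**
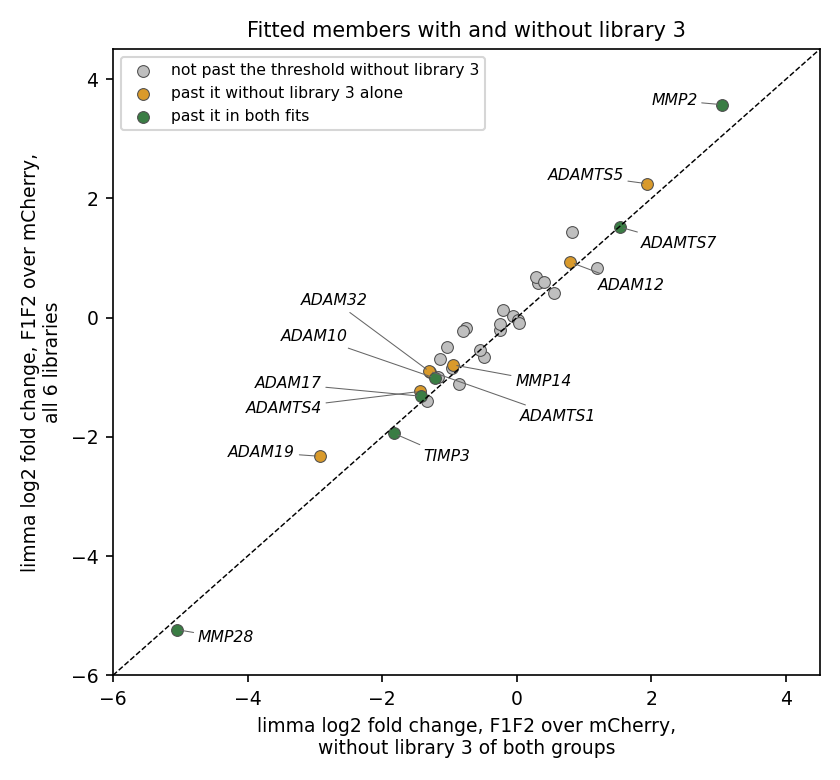
limma log2 fold change of F1F2 over mCherry cells for 35 members, from all 6 libraries (vertical) and without library 3 of both groups (horizontal); the dashed line marks equal values and colours mark an adjusted p under 0.05. MMP2, MMP28, ADAM10, ADAM17, ADAMTS7 and TIMP3 pass in both fits.

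Genes that act on these proteases, in lists chosen with earlier results of these data known, were counted in the authors' deposited table. Of 19 tested activators, inhibitors and receptors of MMPs, 1 rose and 5 fell, against 11.6% higher and 12.0% lower of all genes tested there. CLDN1, a claudin known to aid activation of pro-MMP2, averaged 117 ± 90.9 normalized counts in F1F2 cells and 4157 ± 1336 in mCherry cells (SD, n = 3 each; log2 fold change -4.58, adjusted p = 4.22e-21 in the authors' deposited table). By group means it was 35.4-fold lower in F1F2 cells, or 63.3-fold lower without F1F2 library 2. SPOCK1, a proteoglycan of the testican family, averaged 1863 ± 1493 in F1F2 cells and 173 ± 29.6 in mCherry cells (3.05, adjusted p = 1.56e-09 in the same authors' deposited table). It was 10.8-fold higher in F1F2 cells by group means, 5.85-fold higher without F1F2 library 3 and 6.46-fold higher without library 3 of both groups. PLAU, the urokinase gene, averaged 1262 ± 635 in F1F2 cells and 5035 ± 1715 in mCherry cells (-1.85, adjusted p = 2.87e-05 in the same authors' deposited table). It was 3.99-fold lower in F1F2 cells by group means and 6.42-fold lower without library 3 of both groups. The proprotein convertase genes PCSK5 and PCSK6, whose products can trim proenzymes, and PCOLCE also fell in the authors' first table. The Tuxedo comparison called PCSK6 but not PCSK5 (q = 0.433) or PCOLCE (q = 0.564), and PCOLCE had adjusted p = 0.0659 in limma.

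Of 12 tested regulators of ADAM10 and ADAM17, 0 rose and 5 fell, against the same 11.6% higher and 12.0% lower of all genes tested. SFRP1, a secreted Wnt antagonist reported to inhibit ADAM10, averaged 2941 ± 1689 in F1F2 cells and 23008 ± 3071 in mCherry cells (log2 fold change -2.76, adjusted p = 1.29e-11 in the authors' deposited table). It was 7.82-fold lower in F1F2 cells by group means and 11.7-fold lower without library 3 of both groups. RHBDF2, the gene of iRhom2, which carries ADAM17 to the cell surface, averaged 344 ± 50.7 in F1F2 cells and 1184 ± 432 in mCherry cells (-1.69, adjusted p = 3.92e-06 in the authors' deposited table). TSPAN14, a tetraspanin partner of ADAM10, averaged 3097 ± 634 in F1F2 cells and 7732 ± 1523 in mCherry cells (-1.27, adjusted p = 6.25e-05 in the authors' deposited table). TSPAN5 and PDIA6 fell as well, though TSPAN5 was not called in the Tuxedo comparison (q = 0.142). The list holds inhibitors and helpers alike.

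Of 28 tested genes whose proteins ADAMs shed, 2 rose and 15 fell, against 11.6% higher and 12.0% lower of all genes tested. Their median log2 fold change was -0.70, against -0.04 for all tested genes. The list was chosen with earlier results of these data known and shares CDH1 with the epithelial markers above. These shares are therefore descriptive only. CDH1, E-cadherin, was 223-fold lower in F1F2 cells by group means (adjusted p = 3.13e-90 in the authors' deposited table). HBEGF, an EGF receptor ligand released by ADAM17, averaged 30.9 ± 19.7 in F1F2 cells and 848 ± 221 in mCherry cells, with adjusted p = 1.12e-24 in the same authors' deposited table. It was 27.4-fold lower in F1F2 cells by group means, 43.2-fold lower without F1F2 library 3 and 49.5-fold lower without library 3 of both groups. DLL1, a Notch ligand, averaged 1.34 ± 1.16 in F1F2 cells and 79.8 ± 63.9 in mCherry cells, with adjusted p = 1.2e-07 in the authors' deposited table and mCherry library 3 far below the others at 8.89. EGF and CDH2 were the genes that rose. The Tuxedo comparison did not call DLL1 (q = 0.416) or EGF (q = 0.518). Nor did it call L1CAM, EPHB4, PTPRK and APP, which fell in the authors' first table. It called CDH2 and the other genes of this list that fell.

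Of 21 tested matrix substrates, 4 rose and 5 fell, against 11.6% higher and 12.0% lower of all genes tested. FN1, fibronectin, had an authors' mean of 157920 in F1F2 cells and 5648 in mCherry cells, COL17A1, a hemidesmosome collagen, had 934 in F1F2 cells and 31039 in mCherry cells, and LAMA3, a laminin-332 chain, had 2570 in F1F2 cells and 41261 in mCherry cells. Among 16 tested related metalloproteases and ADAMTS-like genes, 1 rose and 2 fell, against 23.6% called either way of all genes tested. PAPPA, a protease of IGF-binding proteins, averaged 2370 ± 574 in F1F2 cells and 353 ± 95.5 in mCherry cells, with adjusted p = 3.56e-16 in the authors' deposited table. TLL1, a tolloid protease, averaged 42.1 ± 34.6 in F1F2 cells and 195 ± 23.4 in mCherry cells. It was 4.62-fold lower in F1F2 cells by group means, 8.62-fold lower without F1F2 library 3 and 9.08-fold lower without library 3 of both groups. THSD4, an ADAMTS-like gene, averaged 2564 ± 390 in F1F2 cells and 4039 ± 531 in mCherry cells, and the Tuxedo comparison did not call it (q = 0.143).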

How the data were processed

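RNA of 3 F1F2 and 3 mCherry samples was measured with a stranded mRNA kit, per the labels' protocols, and samples were grouped by their titles. Per the submitters' processing notes, the authors used HISAT2 2.1.0, HTSeq 0.9.1, DESeq2 1.18.1 and build GRCh37. Neither the annotation release nor the strand setting of the counting is given in the sources used here. The deposited table of means holds a signal per group, the authors' mean of normalized counts, with their log2 fold change of F1F2 over mCherry and their p-values and adjusted p-values, per the file headers. The authors' second table holds 1 FPKM per group, a log2 fold change, a test score and q-values, per the file headers, from a Tuxedo pipeline whose versions the sources do not give. Coordinates are its GRCh37 loci (1-based), some of which span several genes.

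The calls are those of the authors' tables at an adjusted p or q under 0.05. Each mean, deposited to 15 digits, is a sum of 3 whole read counts divided by size factors, and an integer search returned a single solution for 99.72% of F1F2 and 99.74% of mCherry means above 0. Both groups were resolved for 52297 of 52401 genes, TIMP1 and FLOT2 not among them. On simulated reads the search returned 100.0% of lower means and at least 98.67% of higher means exactly, with 0 wrong. limma 3.58.1 (R 4.3.3, trend and robust, Benjamini-Hochberg) was run on log2(normalized count + 1) for 15907 resolved genes with a mean of at least 10. On simulated counts for 15907 genes it called 61% of 100 genes changed 2-fold and 100% of 100 changed 4-fold, with 3.59% false calls. The simulation gave every gene the same relative spread between libraries (dispersion 0.0456) and no difference of library 3. These rates may therefore not hold for the recovered libraries. Standard deviations are over the 3 recovered libraries. Counting intervals cover counting error only, and the floor covers that of the group without reads alone.

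The members and lists were chosen with earlier results of these data known. Genes named with values are members called in the authors' first table, 13 well-known members whatever their values (MMP1, MMP2, MMP9, MMP14, ADAM9, ADAM10, ADAM15, ADAM17, ADAMTS1 and TIMP1 to TIMP4), the 5 of highest FPKM in either group, the 3 of smallest adjusted p among those not called, and from each context list the 3 called genes of largest log2 fold change. Promoters are from RefSeq (GRCh38.p14) and coding sequences from GENCODE 29. Other tables, thresholds, pseudocounts, filters, scalings and libraries left out were tried as alternatives. Tables and figures were made with Python 3.11.15, pandas 2.3.3, scipy 1.17.1 and matplotlib 3.10.9.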

Additional observations from a re-analysis of the deposited data

How the results depend on the processing

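The authors' first table gave 4 members higher and 9 lower. The Tuxedo table gave 3 and 6, an adjusted p under 0.01 gave 3 and 5, Benjamini-Hochberg over all p-values gave 4 and 8, and a mean of at least 100 gave 3 and 6. limma on the recovered libraries gave 2 and 4, on 35 members fitted. TIMP1 was not fitted because its reads were not resolved, and MMP9, ADAM28 and ADAMTS19 had a mean under 10. MMP14, MMP15 and ADAMTS5 were fitted and did not pass (adjusted p = 0.0506, 0.0529 and 0.0725 in limma), and the cause of this was not tested. Within limma, no filter on low values gave 8 lower, and leaving out library 3 of both groups gave 4 higher and 10 lower. A term for library 3 against the other libraries, chosen after seeing the data, gave 6 higher and 9 lower. Leaving out each library in turn gave 2 to 2 higher and 3 to 8 lower, with 8 without mCherry library 3 (MMP14, ADAM28, ADAM32 and ADAMTS4 then added to the 4) and with ADAM10 lost without F1F2 library 1, F1F2 library 2 or mCherry library 2. Other pseudocounts, scaling to total reads, a mean of at least 100 or no trend and no robust option gave 2 higher and 4 to 6 lower. Of the gene values under these alternatives, 196 stayed on the same side of the threshold, 43 no longer passed it and 8 newly passed it, and 0 called values changed sign. MMP2, MMP28, ADAM17, ADAMTS7 and TIMP3 passed in 16 of 16 alternatives each. ADAM10 passed in 12 (adjusted p from 0.000981 to 0.075), MMP14 in 6 (0.00321 to 0.152), MMP15 in 3 of 16, and ADAMTS5 in 2 of 14, over limma and the Tuxedo table. No paired analysis was possible because the recovered libraries carry no replicate numbers. Counts limit MMP9, ADAM28, ADAMTS17 and ADAMTS19, each with few reads.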

Other observations

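ADAM8, a membrane-anchored protease, is listed as a processed transcript and is therefore not among the 65 members. It had an authors' mean of 58.6 normalized counts in F1F2 cells and 281 in mCherry cells, with a log2 fold change of -2.14 and adjusted p = 2.83e-09 in the authors' deposited table. It was named after its values were seen.

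Some abundant genes had no read in a library of their group. This held for 23 of 5103 resolved genes with an F1F2 mean of at least 1000 and for 18 of 4929 with an mCherry mean of at least 1000, and 0 members were among them. CTSB, the cathepsin B gene and a gene of the activator list, had 0, 17298 and 20097 reads in F1F2 libraries, against 29687, 18043 and 15081 in mCherry libraries, while the authors' second table listed it at 391 FPKM in F1F2 cells and 443 FPKM in mCherry cells.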
